A study of Mus musculus with 16 samples.

Results

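The genes described here are the ligands and receptors of the TNF superfamily, 42 of the 21883 protein-coding mouse genes on assembled chromosomes. They were chosen by symbol alone, as genes whose symbol starts with Tnfsf or Tnfrsf together with Tnf, Lta, Ltb, Ltbr, Fas, Fasl, Cd27, Cd40, Cd40lg and Cd70, which gave 18 ligands and 24 receptors. Occupancy by the transcription factors Bcl11a and Spi1 was measured by CUT&Tag, in which an antibody guides a transposase to the DNA around a bound factor. The cells were MPP3 cells, a myeloid-biased multipotent progenitor sorted from mouse bone marrow. The 16 libraries were Bcl11a in WT-iMOS mice (3 T2 and 3 T1 libraries), Spi1 in KO-iMOS mice (2 T2 and 2 T1 libraries) and Spi1 in WT-iMOS mice (3 T2 and 3 T1 libraries), all carrying the mark 3m in their titles. The study set out to learn how Bcl11a works in MPP3 cells. The labels do not say which gene KO names, what iMOS, T1, T2 and 3m mean, the age and strain of the mice, and whether replicates were separate animals, so p-values measure the spread between these libraries.

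TNF superfamily ligands are mostly trimeric proteins held on the cell surface or released from it, and each binds 1 or a few receptors. Receptors with a death domain can start cell death, and most others recruit TRAF adaptors that switch on NF-kappaB; decoy receptors bind ligand without signalling. In bone marrow the family is known for inflammatory control of progenitors, for B cell survival and for osteoclast formation. Bcl11a is a zinc finger protein that mostly represses transcription, and Spi1, also called PU.1, is an ETS family activator of myeloid and lymphoid genes.

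A gene was counted as occupied in a library when the authors' peak list for that library held a peak at its locus, which runs from 10 kb before to 10 kb past the gene body, by at least 1 bp. The lists give peaks and no read counts, so sequencing depth is unknown and a locus without a peak is one where none was called. Bcl11a lists held 2719 to 7382 peaks, Spi1 lists 6372 to 20241 peaks in KO-iMOS and 5068 to 12261 peaks in WT-iMOS. The summit lay within 1 kb of a gene boundary for 31.6 to 34.8% of KO-iMOS Spi1 peaks and 17.5 to 23.5% of WT-iMOS Spi1 peaks. For Bcl11a this share was 38.5 and 40.7% in T1 replicates 2 and 3 and 10.6 to 21.0% in the other 4 libraries. In KO-iMOS, the names given to peaks start with PKO for T2 and with PWT for T1. WT-iMOS names start with BMG (Bcl11a) or PMG (Spi1) for T2 and with BWG or PWG for T1. The labels do not explain these prefixes, which may name other groups, and values pooled over KO-iMOS would then join different kinds of cells. Shares of ligands and receptors in KO-iMOS, and the genotype difference in the share of libraries, are therefore also given within T2 and within T1. Counts of promoters and regions, the gene lists and the genotype tests pool T2 and T1. Of 10 genes used as markers of MPP3 cells and myeloid progenitors, 8 had a Spi1 peak in at least 2 KO-iMOS libraries and 8 in at least 2 WT-iMOS libraries. On average Spi1 was called at 70.0% of them in KO-iMOS and 56.7% in WT-iMOS, against 43.6% and 24.5% of genes of the same locus length. Of 8 non-haematopoietic marker genes, 0 had a peak in at least 2 libraries of any of the 3 sets. Their average Spi1 shares were 9.4% in KO-iMOS and 0% in WT-iMOS, against 39.0% and 21.6% of genes of the same locus length. Binding lists hold no transcripts, so the sorted cell type could not be checked by expression. A Spi1 peak in at least 2 libraries was found at 3 of 7 B lineage and 3 of 7 T lineage marker genes in both KO-iMOS and WT-iMOS, at 3 of 6 erythroid genes in KO-iMOS, against 2 in WT-iMOS, and at 5 of 6 megakaryocyte genes in both.

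Of the member promoters, 3 carried a peak in at least 6 of the 16 libraries, and their upstream sequences are shown because these are the starts at which binding was called most often. Each is the 250 bases before the RefSeq start on GRCm38.p6, the assembly of mm10, read 5′ to 3′ on the gene's strand, which is the minus strand for all 3. Capitals mark bases within 10 bp of a peak summit in any library.
Tnfsf13, chr11:69685555-69685804: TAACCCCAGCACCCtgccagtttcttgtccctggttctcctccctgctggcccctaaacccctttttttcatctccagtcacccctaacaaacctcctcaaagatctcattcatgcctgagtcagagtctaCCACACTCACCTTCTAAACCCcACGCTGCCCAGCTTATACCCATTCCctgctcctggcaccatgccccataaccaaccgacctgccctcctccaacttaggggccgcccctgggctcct
Tnfsf14, chr17:57194182-57194431: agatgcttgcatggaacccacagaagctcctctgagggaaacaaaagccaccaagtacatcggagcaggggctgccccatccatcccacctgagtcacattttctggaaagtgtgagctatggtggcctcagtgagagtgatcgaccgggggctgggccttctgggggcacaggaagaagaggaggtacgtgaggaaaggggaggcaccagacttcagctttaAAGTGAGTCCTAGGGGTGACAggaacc
Tnfrsf23, chr7:143685876-143686125: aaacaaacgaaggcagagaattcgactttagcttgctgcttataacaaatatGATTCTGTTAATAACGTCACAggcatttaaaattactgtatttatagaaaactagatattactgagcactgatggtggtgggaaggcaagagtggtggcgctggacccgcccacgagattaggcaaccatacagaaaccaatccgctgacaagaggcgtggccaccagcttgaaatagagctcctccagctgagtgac
At Tnfsf13, which encodes the B cell survival factor APRIL, the window had Spi1 peaks in 2 of 4 KO-iMOS libraries, against 6 of 6 in WT-iMOS. No Bcl11a peak was called there. All 8 summits fell in the printed bases, 83 to 247 bases before the start with a median of 86.5. At Tnfsf14, which encodes LIGHT, the window had Bcl11a peaks in 2 of 6 libraries and Spi1 peaks in 3 of 4 KO-iMOS libraries, against 2 of 6 in WT-iMOS. Their summits ran from -115 to 17 bases before the start, negative values lying past it, and 1 fell in the printed bases. At Tnfrsf23, which encodes a mouse decoy receptor for TRAIL, the window had Spi1 peaks in 4 of 4 KO-iMOS libraries, against 2 of 6 in WT-iMOS, with summits 188 to 656 bases before the start. Of these summits 1 fell in the printed bases.

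Neither searched motif was found in the 250 printed bases of these 3 promoters. Most summits at Tnfsf14 and Tnfrsf23 lay outside those bases, so the absence says nothing about the sequence under them. The Spi1 core GAGGAAGT, on either strand, was present in 1 of 36 member windows (Tnfsf18) and in 2.23% of 21262 promoter windows of the same 250 bases. The letters TGACCA, a Bcl11a core, were present in 3 of 36 (Cd27, Lta and Tnfsf15) and in 10.5% of all windows. The motifs do not overlap each other, and the 36 windows belong to the 32 members that the RefSeq promoter table holds. Taking the full windows, which reach 50 bases past the start, Bcl11a had a peak in at least 1 library at 1 of 36 member promoters (16.8% of all promoters). Spi1 had one at 13 of 36 in KO-iMOS (33.5% of all) and at 4 of 36 in WT-iMOS (15.6% of all). Of the 72 merged regions at member loci, 12 touched such a window, a count with no share over all regions beside it.

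Occupancy of ligands and receptors was read against genes of the same locus length in each library, as a description with no test. For Bcl11a, ligands stood at 18.5%, against 14.9% of length-matched genes (difference 3.66 percentage points ± 4.92, SD, n = 6), and receptors at 7.64%, against 16.7% (difference -9.07 ± 7.27, SD, n = 6), below in 5 of 6 libraries. Without T1 replicates 2 and 3 the Bcl11a differences were 4.35 for ligands and -5.77 for receptors. In KO-iMOS, receptors were the class above length-matched genes. Spi1 was called at 58.3% of receptors in KO-iMOS, against 44.5% of length-matched genes (difference 13.9 ± 9.95, SD, n = 4), above in 4 of 4 libraries, and at 40.3% of ligands, against 40.7% (difference -0.39 ± 12.2, SD, n = 4). In WT-iMOS, ligands were the class above. Spi1 was called at 36.1% of ligands in WT-iMOS, against 22.1% of length-matched genes (difference 14.1 ± 7.32, SD, n = 6), above in 6 of 6 libraries, and at 20.8% of receptors, against 24.9% (difference -4.10 ± 5.66, SD, n = 6).

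**Figure D1:**
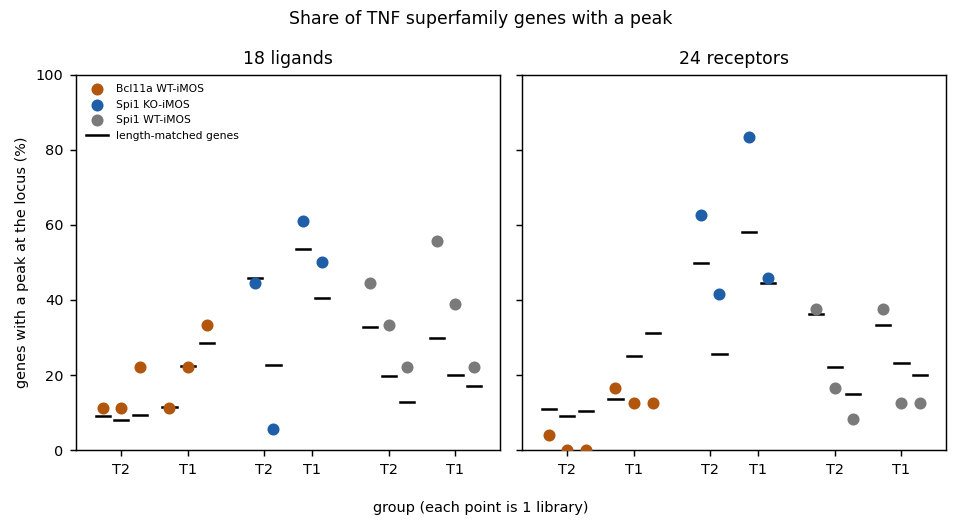
Percent of the 18 ligands (left) and 24 receptors (right) with a peak at the locus, each point being 1 library, with black bars for the share among genes of the same locus length in that library. Spi1 points of WT-iMOS lie above their bars for ligands in 6 of 6 libraries, and Spi1 points of KO-iMOS lie above theirs for receptors in 4 of 4.

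Library by library, the number of receptors with Spi1 was 15 and 10 in KO-iMOS T2 and 20 and 11 in KO-iMOS T1, against 9, 4 and 2 in WT-iMOS T2 and 9, 3 and 3 in WT-iMOS T1. With the full lists all 4 KO-iMOS libraries thus held more occupied receptors than any WT-iMOS library, at the closest 10 against 9. Over all genes the genotypes overlapped, at 25.1 to 55.5% in KO-iMOS and 15.9 to 35.7% in WT-iMOS. The numbers for ligands were 8 and 1 in KO-iMOS T2 and 11 and 9 in KO-iMOS T1, against 8, 6 and 4 in WT-iMOS T2 and 10, 7 and 4 in WT-iMOS T1. Here the genotypes overlapped, and KO-iMOS T2 replicate 2 held Spi1 at Ltb alone among ligands. Ligands minus length-matched genes stood at -9.26 percentage points in KO-iMOS T2 and 8.48 in KO-iMOS T1. Receptors stood at 14.4 in KO-iMOS T2 and 13.3 in KO-iMOS T1.

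When each list was shortened to the strongest 2719 peaks, the length of the shortest, receptors in KO-iMOS stood -0.20 percentage points from length-matched genes. Receptors with Spi1 then numbered 1 and 4 in KO-iMOS T2 and 4 and 2 in KO-iMOS T1. In WT-iMOS they numbered 1, 1 and 2 in T2 and 1, 1 and 3 in T1, so the genotypes overlapped. Counting members with overlapping loci once left ligands at 0.41 percentage points above length-matched genes in WT-iMOS and at -13.1 in KO-iMOS. The Ltb, Tnf and Lta loci overlap one another on chromosome 17, as do Tnfsf12, Tnfsf13 and Tnfsfm13 on chromosome 11, so that 1 peak can count for several ligands. Tnfsfm13 is a readthrough gene spanning Tnfsf12 and Tnfsf13.

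Over the 42 members, Bcl11a was called in at least 3 of 6 libraries at 6 (4 ligands and 2 receptors, 15.9% of all genes). Spi1 was called in at least 3 of 4 KO-iMOS libraries at 20 (8 ligands and 12 receptors, 38.9% of all genes) and in at least 4 of 6 WT-iMOS libraries at 8 (5 ligands and 3 receptors, 20.7% of all genes). It was called in every KO-iMOS library at 8 members (22.3% of all genes) and in every WT-iMOS library at 4 (10.4% of all genes). As shares of the members these are 14.3% for Bcl11a, 47.6% for Spi1 in KO-iMOS and 19.0% for Spi1 in WT-iMOS, of which those for Bcl11a and for WT-iMOS are close to the background. In at least 1 library, Bcl11a reached 15 members (39.5% of all genes) and Spi1 32 in KO-iMOS (60.2% of all genes) and 22 in WT-iMOS (44.9% of all genes). In WT-iMOS 13 members carried both factors, which is 86.7% of those with Bcl11a and 59.1% of those with Spi1. Among all genes these shares were 79.4% and 69.8%. The 9 ligands with Bcl11a all had Spi1 in WT-iMOS as well, whereas the receptors Tnfrsf25 and Tnfrsf26 had Bcl11a without it. No peak of either factor was called at 6 members (33.4% of all genes), namely Cd40lg, Fasl, Tnfsf10, Tnfsf15 and Tnfsf18 among ligands and Tnfrsf11b, the soluble decoy receptor osteoprotegerin.

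**Figure D2:**
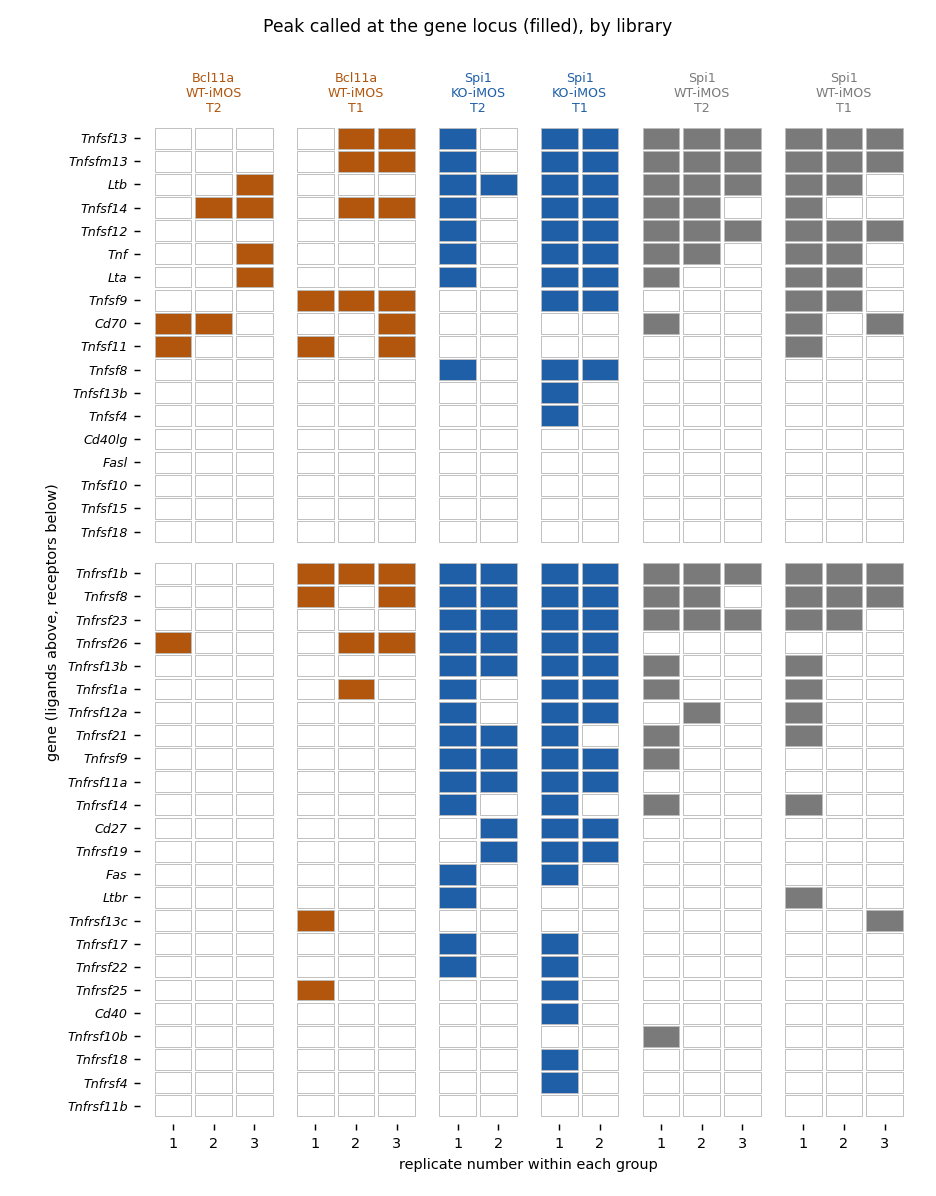
Grid of the 42 genes (rows, ligands above receptors) and 16 libraries (columns, by group and replicate number), with a filled square where a peak was called at the locus. The upper ligand rows are filled in most Spi1 libraries of both genotypes, many receptor rows are filled in KO-iMOS columns with few or no WT-iMOS squares, and 6 rows are empty.

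The peaks at member loci merged into these 72 regions, of which 30 were called in 1 library and 6 in at least 8. Spi1 in KO-iMOS was the only set called at 37 of the 72 regions (33.4% of all 34234 regions), 28 of 50 at receptors and 9 of 22 at ligands. Bcl11a was present at 16 regions, and 12 of these also held Spi1 in WT-iMOS. The centre lay inside a member gene for 36 regions, and 10 regions overlapped other genes only. Apart from Spi1 in KO-iMOS alone, these counts have no share over all regions beside them. They describe the members and do not set them apart from other genes.

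Among the ligands, Tnfsf13, Tnfsf12 and Tnfsfm13 had Spi1 in 6 of 6 WT-iMOS libraries. In KO-iMOS all 3 had it in 3 of 4, absent from T2 replicate 2. Tnfsf12 encodes TWEAK, the ligand of Tnfrsf12a. At the Tnfsf13 start region, chr11:69685342-69686069, the authors' fold enrichment over local background was 4.79 in KO-iMOS T2 replicate 1 and 4.29 in KO-iMOS T1 replicate 2, against 7.18, 7.65 and 6.88 in WT-iMOS T2 and 5.52, 7.11 and 4.73 in WT-iMOS T1. No Bcl11a peak was called there. This region was chosen after its values were seen, and the region called in most libraries was chr11:69672093-69672707, at the start of the neighbouring Eif4a1, at the edge of the 10 kb flank. Peaks reaching the flank there were called for Bcl11a in 2 libraries and for Spi1 in 3 KO-iMOS and 4 WT-iMOS libraries. For Tnfsf12 the start region of Tnfsf13 is the one called in most libraries, 171 bp outside the gene. Fold enrichments are the authors' values and describe each peak within its own list.

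The Ltb, Tnf and Lta group encodes lymphotoxin beta, TNF and lymphotoxin alpha, the classical inflammatory ligands of the family. Ltb had Spi1 in 4 of 4 KO-iMOS libraries, against 5 of 6 in WT-iMOS, Tnf in 3 and 4, and Lta in 3 and 3, with Bcl11a in 1 of 6 (T2 replicate 3) at each. The leading Ltb region, chr17:35185906-35186907, overlapped the neighbouring gene Lst1 and lay 7600 bp from Ltb. Fold enrichment there was 6.28 and 6.35 in KO-iMOS T2 and 5.28 and 5.43 in KO-iMOS T1, against 6.04, 5.43 and 3.54 in WT-iMOS T2 and 5.09 and 5.67 in WT-iMOS T1 replicates 1 and 2. With lists of equal length, Ltb still had Spi1 in 4 of 4 KO-iMOS libraries, against 4 of 6 in WT-iMOS. Over the Tnf gene itself, at chr17:35200412-35201295, Spi1 was called in 0 of 4 KO-iMOS libraries, against 2 of 6 in WT-iMOS. Bcl11a was called there in 1 of 6.

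Tnfsf14, Tnfsf9, Tnfsf11 and Cd70 were the ligands with Bcl11a in at least 3 libraries. Tnfsf14 had Bcl11a in 2 of 3 T2 and 2 of 3 T1 libraries. Its Spi1 peaks were in 3 of 4 KO-iMOS libraries, against 3 of 6 in WT-iMOS. At its start region, chr17:57193906-57194500, fold enrichment was 4.84 and 5.41 for Bcl11a in T1 replicates 2 and 3. For Spi1 it was 5.80 in KO-iMOS T2 replicate 1 and 5.99 and 4.38 in KO-iMOS T1, against 5.53 and 4.10 in WT-iMOS T2 replicates 1 and 2. With lists of equal length Tnfsf14 kept a Bcl11a peak in 4 of 6 libraries and had no Spi1 peak in any library of either genotype. Tnfsf11 encodes RANKL, the osteoclast factor, and had Bcl11a in 3 of 6, with Spi1 in 0 of 4 KO-iMOS libraries, against 1 of 6 in WT-iMOS. Tnfsf9, a costimulatory ligand of T cells, had Bcl11a in 3 of 6 libraries, with Spi1 in 2 of 4 KO-iMOS libraries, against 2 of 6 in WT-iMOS.

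Cd70, the ligand of Cd27, had Bcl11a in 3 of 6 libraries, with Spi1 in 0 of 4 KO-iMOS libraries, against 3 of 6 in WT-iMOS. All Cd70 peaks were in 1 region, chr17:57155907-57156923, outside the gene. Fold enrichment there was 5.44 and 4.98 for Bcl11a in T2 replicates 1 and 2 and 4.23 in T1 replicate 3, and for Spi1 3.92 in WT-iMOS T2 replicate 1 and 4.14 and 4.68 in WT-iMOS T1 replicates 1 and 3. Cd70 was the 1 member whose share of libraries was lower by at least 0.5 in KO-iMOS (2.12% of all genes), and Fisher's exact test gave p = 0.200 (adjusted 0.813). With lists of equal length Cd70 had Spi1 in 0 of 6 WT-iMOS libraries and Bcl11a in 2 of 6, so the genotype difference was absent there. Its receptor Cd27 stood at 3 of 4 libraries in KO-iMOS, against 0 of 6 in WT-iMOS, through chr6:125231323-125231818, which overlaps the neighbouring gene Tapbpl. Tnfsf8, the ligand of Tnfrsf8, also had Spi1 in 3 of 4 KO-iMOS libraries, against 0 of 6 in WT-iMOS, and the ligands Tnfsf13b, which encodes BAFF, and Tnfsf4 had it in 1 of 4 and 0 of 6. The Tnfsf8 region chr4:63822887-63823610 had fold enrichments of 5.19 in KO-iMOS T2 replicate 1 and 5.54 and 5.74 in KO-iMOS T1.

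Among the receptors, Tnfrsf1b, the TNF receptor that lacks a death domain, had the fullest record. Spi1 was called at Tnfrsf1b in 4 of 4 KO-iMOS libraries, against 6 of 6 in WT-iMOS, and Bcl11a in 0 of 3 T2 and 3 of 3 T1 libraries, 2 of the T1 libraries being replicates 2 and 3. The peaks lay inside the gene at chr4:145240371-145241425, 5972 bp from its start. Fold enrichment for Bcl11a in T1 was 3.66, 4.50 and 5.65. For Spi1 it was 6.16 and 7.91 in KO-iMOS T2 and 8.81 and 8.04 in KO-iMOS T1, against 10.2, 8.03 and 5.83 in WT-iMOS T2 and 7.60, 7.97 and 5.76 in WT-iMOS T1. A second region inside the gene, chr4:145233449-145234236, had Bcl11a in 1 library and Spi1 in 3 of 4 KO-iMOS libraries, against 5 of 6 in WT-iMOS. With lists of equal length Tnfrsf1b had Spi1 in 3 of 4 KO-iMOS libraries, against 6 of 6 in WT-iMOS. Tnfrsf1a, the TNF receptor with a death domain, had Bcl11a in 1 of 6 libraries, with Spi1 in 3 of 4 KO-iMOS libraries, against 2 of 6 in WT-iMOS, none of them inside the gene.

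Tnfrsf23 and Tnfrsf8 were the other receptors with Spi1 in most WT-iMOS libraries. Tnfrsf23 had Spi1 in 4 of 4 KO-iMOS libraries, against 5 of 6 in WT-iMOS, and no Bcl11a, with all peaks in the merged region chr7:143685440-143686739, which spans its start. Fold enrichment there was 5.97 and 10.3 in KO-iMOS T2 and 8.71 and 6.14 in KO-iMOS T1, against 6.97, 4.93 and 5.71 in WT-iMOS T2 and 5.50 and 6.41 in WT-iMOS T1 replicates 1 and 2. Tnfrsf8 encodes CD30, a receptor of activated lymphocytes. It had Bcl11a in 2 of 6 libraries and Spi1 in 4 of 4 KO-iMOS libraries, against 5 of 6 in WT-iMOS, spread over several regions, of which chr4:145300011-145300660 was called in 4 of 4 KO-iMOS libraries, against 3 of 6 in WT-iMOS. Fold enrichment in that region was 8.07 and 7.87 in KO-iMOS T2 and 8.07 and 7.83 in KO-iMOS T1, against 7.79 and 4.66 in WT-iMOS T2 replicates 1 and 2 and 4.57 in WT-iMOS T1 replicate 1.

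Tnfrsf12a, Tnfrsf21 and Tnfrsf1a each had Spi1 in 3 of 4 libraries in KO-iMOS and 2 of 6 in WT-iMOS. Tnfrsf12a, the receptor of TWEAK, lacked it in KO-iMOS T2 replicate 2. Its region inside the gene, chr17:23675808-23676317, had fold enrichments of 6.62 and 5.54 in KO-iMOS T1, against 5.03 in WT-iMOS T2 replicate 2 and 5.67 in WT-iMOS T1 replicate 1. Tnfrsf21, a receptor with a death domain, lacked Spi1 in KO-iMOS T1 replicate 2. Its region inside the gene, chr17:43058464-43059171, had 5.78 and 7.28 in KO-iMOS T2 and 7.83 in KO-iMOS T1 replicate 1, against 4.52 in WT-iMOS T2 replicate 1 and 5.84 in WT-iMOS T1 replicate 1. Tnfrsf14, a receptor of LIGHT, had Spi1 in 2 of 4 libraries in KO-iMOS and 2 of 6 in WT-iMOS, and Ltbr, the lymphotoxin beta receptor, in 1 and 1. Cd40, Tnfrsf4, Tnfrsf18 and Tnfrsf25 had it in 1 of 4 and 0 of 6, and Tnfrsf10b, a TRAIL receptor, and Tnfrsf13c, the BAFF receptor, in 0 of 4 and 1 of 6. Bcl11a was called in 1 library at Tnfrsf25 and in 1 at Tnfrsf13c.

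The genotype comparison asks where Spi1 peaks differ between KO-iMOS and WT-iMOS cells. The share of libraries with a Spi1 peak was higher by at least 0.5 in KO-iMOS at 10 members, 9 receptors and 1 ligand (22.5% of all genes). The receptors were Tnfrsf11a, Tnfrsf26, Tnfrsf9, Tnfrsf13b, Cd27, Tnfrsf19, Fas, Tnfrsf17 and Tnfrsf22, and the ligand was Tnfsf8. Together they are 23.8% of the 42 members, near the background, while 37.5% of receptors and 5.56% of ligands were among them, against 24.2% and 22.7% of genes of the same locus length. The median difference in share was 0.33 for receptors and 0 for ligands, against 0 for all genes, not matched for length. The mean difference was 0.23 for the 42 members and 0.18 for all genes, so Spi1 peaks were called more often in KO-iMOS over all genes too. Within T2 alone the difference reached 0.5 at 12 members (21.6% of all genes) and within T1 alone at 19 (32.3% of all genes), in both cases including all 10. The T2 and T1 libraries are parts of those that chose the 10, so finding them again is no separate support. For members in every KO-iMOS and no WT-iMOS library it could not come out otherwise. The members that met the rule changed with how the locus was drawn. With no flank there were 5 (3 receptors and 2 ligands), 3 of them among the 10. With 50 kb on either side there were 13 (8 receptors and 5 ligands), 5 of them among the 10. With summits within 1 kb of a gene boundary there were 3 (1 receptor and 2 ligands), and Fas was the only one of the 10.

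**Figure D3:**
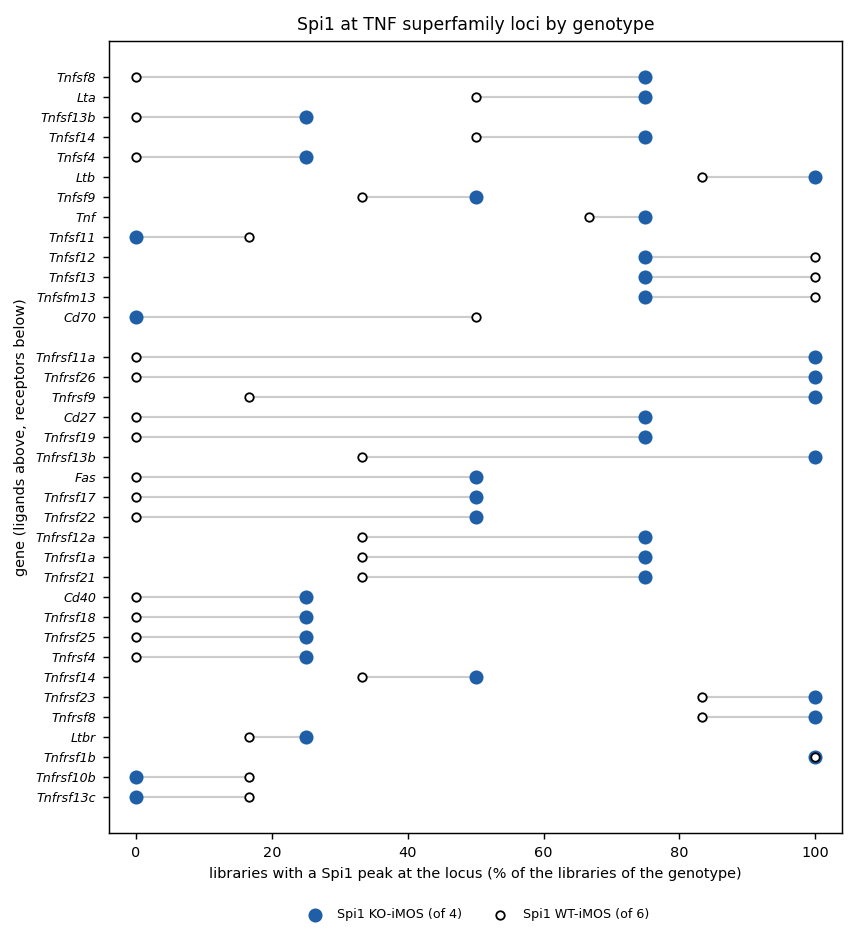
Percent of Spi1 libraries with a peak at each locus, filled circles for the 4 KO-iMOS and open circles for the 6 WT-iMOS libraries, ligands above and receptors below, for members with a Spi1 peak in any library. Tnfrsf11a and Tnfrsf26 stand at 4 of 4 against 0 of 6, and Cd70 has its open circle to the right, at 0 of 4 against 3 of 6.

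Tnfrsf11a and Tnfrsf26 had Spi1 in every KO-iMOS and no WT-iMOS library (2 members, 1.48% of all genes), and with Cd27, Tnfrsf19 and Tnfsf8 they make 5 members in at least 3 KO-iMOS and no WT-iMOS library (6.25% of all genes). Tnfrsf11a encodes RANK, the receptor of Tnfsf11. Its region chr1:105786849-105787476, inside the gene and 6439 bp from the start, had fold enrichments of 6.50 and 5.98 in KO-iMOS T2 and 6.81 and 7.52 in KO-iMOS T1. At Tnfrsf26 the region with all 4 KO-iMOS libraries was chr7:143605157-143605755, 1930 bp outside the gene. Fold enrichment there was 7.51 and 6.21 in KO-iMOS T2 and 5.84 and 4.52 in KO-iMOS T1. It was picked for its KO-iMOS peaks. Another region, chr7:143599499-143600375 over the gene Cars, was called in as many libraries, and its peaks ranked higher on average in their lists. That region held Bcl11a in 1 of 3 T2 and 2 of 3 T1 libraries. It also held Spi1 in 1 of 4 KO-iMOS libraries, with a fold enrichment of 5.01. The Tnfrsf26, Tnfrsf22 and Tnfrsf23 loci lie in 1 cluster on chromosome 7, and Tnfrsf22, also a decoy receptor for TRAIL in mouse, had Spi1 in 2 of 4 KO-iMOS libraries, against 0 of 6 in WT-iMOS.

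Tnfrsf9 encodes a costimulatory receptor of T cells whose ligand is Tnfsf9. It had Spi1 in 4 of 4 KO-iMOS libraries, against 1 of 6 in WT-iMOS, at chr4:150913982-150914615, 5540 bp outside the gene and nearest to the start of Park7. Fold enrichment was 8.66 and 6.46 in KO-iMOS T2 and 8.85 and 7.23 in KO-iMOS T1, against 6.44 in WT-iMOS T2 replicate 1. Tnfrsf13b encodes TACI and Tnfrsf17 BCMA, the receptors of Tnfsf13. Tnfrsf13b had Spi1 in 4 of 4 KO-iMOS libraries, against 2 of 6 in WT-iMOS, and its region inside the gene, chr11:61142414-61143156, was called in 4 and 1. Fold enrichment was 6.84 and 7.99 in KO-iMOS T2 and 8.78 and 9.12 in KO-iMOS T1, against 6.78 in WT-iMOS T2 replicate 1. Tnfrsf17 stood at 2 of 4 libraries in KO-iMOS, against 0 of 6 in WT-iMOS. Fas, the death receptor of Fasl, stood at 2 of 4 and 0 of 6, with a peak over its start in both KO-iMOS libraries and a further one 2015 bp outside the gene in T1 replicate 1, and Tnfrsf19, which encodes TROY, at 3 of 4 and 0 of 6.

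**Figure D4:**
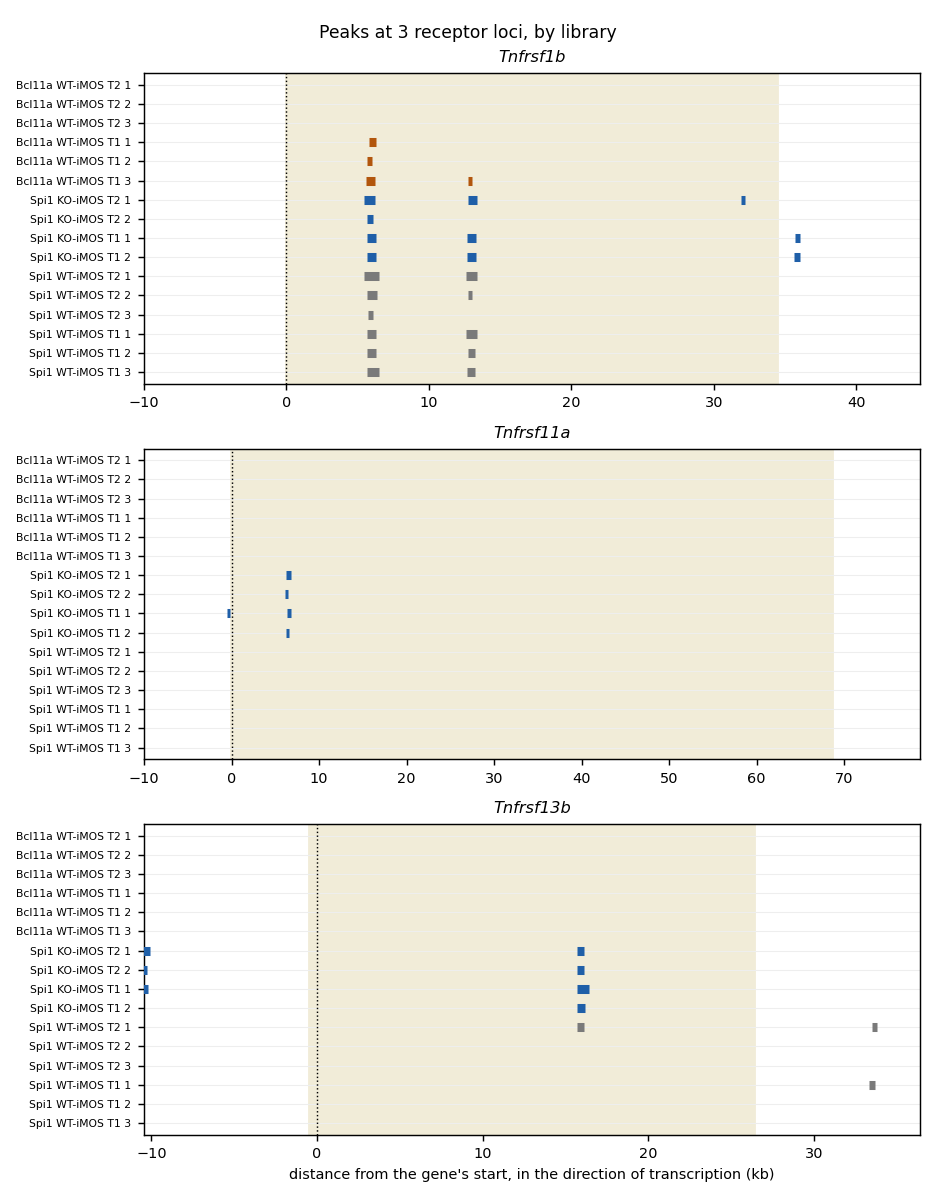
Peaks (coloured bars) of each of the 16 libraries (rows) at Tnfrsf1b, Tnfrsf11a and Tnfrsf13b, by distance in kb from the gene's start in the direction of transcription, with the gene body shaded. Tnfrsf1b peaks of both factors stack 5972 bp from the start, while the Tnfrsf11a stack inside the gene holds the 4 KO-iMOS libraries alone.

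None of these genes passed the test over the whole genome. Over 21883 genes, Fisher's exact test, two-sided with Benjamini-Hochberg adjustment, called 0 higher and 0 lower in KO-iMOS (smallest adjusted p = 0.264), with 1829 higher and 194 lower at an unadjusted p under 0.05. The smallest p that 4 against 6 libraries allow is 0.00476, reached by Tnfrsf11a and Tnfrsf26. A call after adjustment would need many more genes at that p, so 0 calls do not show that the genotypes were alike. At an unadjusted p under 0.05, 6 members were higher (8.36% of all genes) and 0 lower (0.887% of all genes). The same exact test on 19529 merged Spi1 regions called 0 (smallest adjusted p = 0.107), with 3004 higher and 762 lower at an unadjusted p under 0.05. Of the 37 regions at member loci, 9 were higher at that level (15.4% of all regions) and 0 lower (3.9% of all regions), and 2 were called in every KO-iMOS and no WT-iMOS library (2.73% of all regions). With lists of equal length a difference of 0.5 or more remained at Tnfrsf13b and Tnfrsf9 (4.23% of all genes), was absent from the other 8, and was found in the other direction at Tnfsf12, Tnfsf13 and Tnfsfm13 (2.40% of all genes), each at 0 of 4 libraries in KO-iMOS, against 4 of 6 in WT-iMOS. The share of summits near gene boundaries was higher in all 4 KO-iMOS lists than in any of the 6 WT-iMOS lists. The KO-iMOS lists of T2 replicate 1 (14882 peaks) and T1 (20241 and 13053 peaks) were longer than every WT-iMOS list, the longest of which held 12261. The KO-iMOS T2 replicate 2 list of 6372 peaks was shorter than 5 of the WT-iMOS lists. The part of summit positions and list lengths in the result was not tested beyond the values given.

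The comparison of factors within WT-iMOS asks which loci hold 1 factor without the other, and it shares its Spi1 libraries with the genotype comparison. The share of libraries was lower for Bcl11a than for Spi1 by at least 0.5 at 8 members (12.3% of all genes), namely Tnfsf12, Tnfsf13, Tnfsfm13, Ltb, Tnf, Tnfrsf1b, Tnfrsf23 and Tnfrsf8. It was higher by as much at Tnfrsf26 (2.28% of all genes), with Bcl11a in 3 of 6 libraries and with Spi1 in 0 of 6. Tnfsf12 stood at 0 of 6 for Bcl11a and 6 of 6 for Spi1 (exact p = 0.00216, the smallest possible, adjusted 0.162). Tnfrsf23 stood at 0 of 6 for Bcl11a and 5 of 6 for Spi1 (exact p = 0.0152, adjusted 0.387). After Benjamini-Hochberg adjustment Fisher's exact test called 0 genes. At an unadjusted p under 0.05, 59 genes were higher for Bcl11a (0.27%, with 0 members) and 797 lower (3.64%, with these 2 members).

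For T2 against T1, the Bcl11a share was lower by at least 0.5 in T2 at 5 members (11.3% of all genes) and higher at 0 (0.736% of all genes). Tnfrsf1b and Tnfsf9 had Bcl11a in 0 of 3 T2 and 3 of 3 T1 libraries, and Tnfrsf8, Tnfsf13 and Tnfsfm13 in 0 of 3 T2 and 2 of 3 T1 libraries. With 3 against 3 the exact p cannot go below 0.1, and 0 genes reached an unadjusted p under 0.05. Spi1 in KO-iMOS was lower in T2 at 18 members (26.3% of all genes), 10 of them ligands, and higher at Ltbr and Tnfrsf21 (4.44% of all genes). With 2 T2 and 2 T1 libraries, a single library makes a difference of 0.5. Cd40, Tnfrsf4, Tnfrsf18, Tnfrsf25, Tnfsf13b and Tnfsf4 had their only Spi1 peak in T1 replicate 1, the longest list (20241 peaks). The T2 replicate 2 list was the shortest in KO-iMOS (6372 peaks), and the part of list length was not tested. In WT-iMOS, Spi1 was lower in T2 at 1 member, Tnfsf9, at 0 of 3 T2 and 2 of 3 T1 libraries (3.17% of all genes), and higher at 0 (2.01% of all genes). The exact test stratified by genotype called 0 genes for Spi1 after Benjamini-Hochberg adjustment, with 0 higher and 8 lower (0.0366% of all genes) at an unadjusted p under 0.05, no member among them.

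Genes that act downstream of these receptors were read from gene lists chosen by function. Their shares were not computed with peak lists of equal length. Of 24 receptor-proximal signalling genes, 14 had Bcl11a in at least 2 of 6 libraries, and 17 had Spi1 in at least 2 of 4 KO-iMOS and 12 in at least 2 of 6 WT-iMOS libraries. On average Bcl11a was called at 29.2% of them, against 18.5% of length-matched genes, and Spi1 at 69.8% in KO-iMOS and 41.0% in WT-iMOS, against 48.2% and 27.6% of length-matched genes. Map3k14, the kinase NIK of the non-canonical NF-kappaB pathway, had Bcl11a in 5 of 6, Spi1 in 4 of 4 KO-iMOS and Spi1 in 6 of 6 WT-iMOS libraries. In the same order, the ubiquitin ligases Birc3 and Rnf31 both stood at 4, 4 and 6 libraries. The adaptor Traf5 stood at 2, 4 and 6 and the initiator caspase Casp8 at 1, 4 and 6. The death pathway genes Ripk1 and Fadd both had Bcl11a in 3 of 6 libraries. In KO-iMOS Ripk1 had Spi1 in 4 and Fadd in 3 of 4 libraries, against 0 of 6 in WT-iMOS for each, and the adaptor Tradd had no peak.

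Of 10 negative regulators of TNF signalling, 3 had Bcl11a in at least 2 of 6 libraries, and 9 had Spi1 in at least 2 of 4 KO-iMOS and 4 in at least 2 of 6 WT-iMOS libraries. On average Bcl11a was called at 21.7% of them, against 17.5% of length-matched genes, and Spi1 at 70.0% in KO-iMOS and 36.7% in WT-iMOS, against 46.1% and 26.3% of length-matched genes. Tnfaip3, the ubiquitin editor A20, had Bcl11a in 2, Spi1 in 4 of 4 KO-iMOS and Spi1 in 6 of 6 WT-iMOS libraries. The deubiquitinase Cyld stood at 4, 4 and 5, and Zfp36, which destabilises Tnf mRNA, at 3, 3 and 4. The share of libraries was higher by at least 0.5 in KO-iMOS at 5 of the 24 signalling genes and 5 of the 10 negative regulators (22.5% of all genes) and lower by as much at 0 of either (2.12% of all genes). A last list held 6 genes related to the family but outside the naming rule. Bcl11a was called on average at 22.2% of them, against 21.0% of length-matched genes. For Spi1 the averages were 37.5% in KO-iMOS and 33.3% in WT-iMOS, against 51.4% and 31.9% of length-matched genes. Ngfr, Edar, Edaradd and Eda2r had no Bcl11a peak and no Spi1 peak in WT-iMOS. Relt had Bcl11a in 4, Spi1 in 4 of 4 KO-iMOS and Spi1 in 6 of 6 WT-iMOS libraries. The ligand gene Eda had Bcl11a in 4, Spi1 in 0 of 4 KO-iMOS and Spi1 in 6 of 6 WT-iMOS libraries. Eda reached the smallest exact p that the test allows (Fisher, p = 0.00476, adjusted 0.264). No gene of these lists passed any of the 4 comparisons after adjustment.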

How the data were processed

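Per the labels' protocols, a commercial kit was used for CUT&Tag, and 1 narrowPeak list per library was deposited, with peaks called separately in each. The submitters' processing notes name mm10, Bowtie2, SAMtools and MACS2 and give no versions. Each line of the authors' lists gives a summit offset, a score, a ratio called fold enrichment here, and −log10 transforms of a p-value and a q-value. These deposited values served to rank, filter and describe peaks within their own list. No read counts are held, which leaves the depth unknown and allows no counting interval.

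Groups follow the labels, and all 16 libraries were used. Gene bodies and promoter sequences came from RefSeq tables on GRCm38.p6, and promoter windows run from 250 bases before to 50 after a start. The gene table has no exons, so positions are given relative to the gene body. Length-matched shares weight all genes to the members' deciles of locus length, with no test. Presence of a peak was compared by exact tests with Benjamini-Hochberg adjustment over all genes or regions at a threshold of 0.05, after the scripts were tested on simulated data (Python 3.11.15, numpy 2.4.6, scipy 1.17.1, pandas 2.3.3, matplotlib 3.10.9). Regions are peaks of any libraries joined by at least 1 bp. Those tested held at least 2 Spi1 libraries.

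Members named with values had Bcl11a in at least 3 of 6 libraries, Spi1 in at least 4 of 6 WT-iMOS or 3 of 4 KO-iMOS libraries, or a share of libraries differing by at least 0.5 in a comparison; other members are given by counts. The region given at a member was the one called in most libraries unless stated, and which bases to put in capitals was chosen after the peaks were seen. The members, gene lists and tests were chosen with earlier results of these data known.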

Additional observations from a re-analysis of the deposited data

How the results depend on the processing

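Counts of genes and regions called were 0 in all 4 gene comparisons and the region comparison under every alternative tried. After adjustment, a call needs many genes or regions at or near the smallest p that so few libraries allow. For T with Bcl11a that p is 0.1 in the exact test, so no call was possible. The counts of 0 therefore do not show that loci were alike. The replicate block also gave 0 calls, but its exact p cannot go below 0.125 for genotype, 0.25 for T with Bcl11a, 0.0625 for T with Spi1 and 0.03125 for the factors, so it could call nothing for genotype or T. Same-numbered libraries correlated at -0.11 to 0.26 in their deviations and were not taken as paired. Differences from length-matched genes, in percentage points, moved as follows. For Bcl11a ligands (3.66) they were -3.27 with no flank, 9.30 with 50 kb and -5.41 with summits within 1 kb of a gene boundary. Bcl11a receptors (-9.07) stood at 0.16 with 50 kb. Spi1 ligands in KO-iMOS (-0.39) stood at 16.6 with 50 kb and -13.1 with overlapping loci counted once. Spi1 receptors in KO-iMOS (13.9) stood at -0.20 with lists of equal length and -5.75 near boundaries. Spi1 ligands in WT-iMOS (14.1) stood at 4.17 with no flank, 6.24 with 50 kb, 3.0 near boundaries and 0.41 with overlapping loci counted once. Spi1 receptors in WT-iMOS (-4.10) stood at 8.15 with 50 kb. The cause was not tested. The other 155 alternative values stayed within the spread between libraries or gave the same count. Leaving out each library in turn gave 11.7 to 15.9 for WT-iMOS ligands and, without T2 replicate 3, 1.83 for Bcl11a ligands. Unknown depth limits every absence of a peak.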
